A study of Mus musculus with 2 samples.

Results

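The cells described here were 144 splenic IL-10-producing CD4+ T cells in which transcripts of the S100 proteins S100a6 and S100a11 and of the galectins Lgals1 and Lgals3 made up an unusually large share of the RNA. They were chosen by measured values. Among cells of the spleen library with a mitochondrial share below 6%, 0 unique molecular identifiers (UMIs) of Foxp3, Ccl5 below 0.5% of UMIs and fewer than 5 summed UMIs of 5 genes of dividing cells (Mki67, Top2a, Birc5, Cdk1 and 2810417H13Rik), the 15% of cells with the highest summed UMI share of the 4 genes were taken. Of 1738 splenic barcodes, 963 met the conditions and were eligible, and 144 of these were members. The other 819 eligible cells, the other 85%, served for comparison. The series held 3212 barcodes in all.

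The cells came from IL-10eGFP Foxp3mRFP double reporter mice between 8 and 16 weeks of age, in which eGFP marks Il10 and mRFP marks Foxp3. All mice used for these libraries had received 2 intraperitoneal injections of the anti-CD3 antibody 2C11, 15 µg on day 0 and 15 µg on day 2, with death 4 h after the last, so no cells of untreated mice were compared. CD4+ T cells positive for eGFP were sorted from spleen and small intestine without a gate on Foxp3, and 1 library of 10x Genomics Chromium was made per tissue. How many mice were pooled is not given in the sources used here, and a library of several mice shows no spread between them.

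S100 proteins are small calcium-binding proteins, several of which pair with annexins at membranes and touch the actin cytoskeleton. Galectins bind beta-galactosides on glycoproteins and are made by T cells after activation. In T cells, S100a4, S100a6, S100a10, S100a11 and Lgals1 are known as genes that are low in naive cells and high in antigen-experienced effector and memory cells, which also lose the lymph node homing receptor Ccr7.

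The spleen library held 11103530 UMIs and the library of the small intestine 5693395, with 0 barcodes in common. The 144 members held 911960 UMIs with a median of 6049 per cell, and the other 85% held 4150485 UMIs with a median of 4590. Members had a median of 2086 genes per cell and the other 85% 1644. Levels are given in CPM, the UMIs of a gene summed over the cells of a group and scaled to 1000000 UMIs of that group, and 3 UMIs corresponded to 3.29 CPM in the members and 0.723 in the other 85%. Values in brackets are 95% intervals, exact Poisson for levels and exact binomial (Clopper-Pearson) for ratios and shares, and cover counting error only. Where a count was 0, the limit given is that of 3 counts. Cells of 1 library are not replicates, so no test was made and every difference below describes how these cells were divided.

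The share of the 4 rule genes had no gap at which members parted from the rest. Members had a median of 1.17% of their UMIs in these genes, from 0.752% to 5.33%, against a median of 0.161% in the other 85%, of which 43 cells had no UMI of any of the genes. The 3 members nearest the limit had shares of 0.752%, 0.757% and 0.763%, and the 3 cells just outside it 0.751%, 0.749% and 0.748%. Within 10% of the limit there were 17 members and 27 other cells. The limit was thus set by the 15% of the rule and not by a gap in its values.

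All 4 rule genes were higher in members, as the choice made them. S100a6 stood at 4692 CPM in members and 594 CPM in the other 85%, a ratio of 7.90 [7.52, 8.31]. S100a11 stood at 2332 and 646 CPM, a ratio of 3.61 [3.41, 3.82], and Lgals1, galectin-1, at 5056 and 1004 CPM. Lgals3, galectin-3, stood at 993 and 51.3 CPM. At an equal depth of 2500 UMIs per cell, which kept 141 members and 750 other cells, S100a6 was found in 99.3% and 48.1% of cells and Lgals3 in 58.9% and 7.33%. Lgals3 UMIs were also the most concentrated of the 4, since 50% of them were in 18 members, against 39 members for S100a6.

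Each rule gene was also left out of the choice in turn. The sums of 3 and of 4 genes share most of their UMIs, so the overlap of the cells is no support for the choice, and with the 4 genes weighted equally 107 of 144 cells were shared. The choice without S100a6 shared 121 of 144 cells (84.0%) with the members and had S100a6 at 4195 CPM against 709, a ratio of 5.91 [5.63, 6.21]. Without Lgals3 in the choice, 136 cells (94.4%) were shared and Lgals3 stood at 910 against 68.5 CPM, a ratio of 13.3 [11.6, 15.3]. The ratios of S100a11 and Lgals1, each left out in turn, were 3.20 [3.02, 3.39] and 4.30 [4.12, 4.48]. Over all eligible cells at equal depth (891 cells) Spearman's rho between pairs of the 4 genes ran from 0.33 to 0.58, and among the 141 members, a range cut by the rule, from 0.10 to 0.22. These points share 1 library, and UMIs of low genes are sparse.

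S100a6 and S100a11 lie in the S100 gene cluster of chromosome 3 (GRCm38), where 13 S100a genes were placed between positions 90511034 and 93564643. Of these, 6 had at least 10 UMIs in members and the other 85% together. S100a4, whose product binds myosin and is a marker of motile cells, stood at 970 CPM in members and 126 in the other 85%, a ratio of 7.69 [6.89, 8.58]. S100a10, the partner of annexin A2, stood at 1826 and 607 CPM, a ratio of 3.01 [2.82, 3.20], and S100a13 at 537 and 249 CPM, a ratio of 2.15 [1.93, 2.40]. S100a1 was low, with 11 UMIs in members and 17 in the other 85%. S100a5, which lies between S100a4 and S100a6, had 1 UMI in members and 2 in the other 85%. The myeloid genes S100a8 and S100a9 had 1 and 0 UMIs in members. Expressed and nearly silent S100 genes thus lay side by side in the cluster in these cells.

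The stretches before the RefSeq start sites of 5 genes are shown because these genes lie in the S100 cluster or head the list of genes high in members. They are from RefSeq (GRCm38.p6, plus strand, 5′ to 3′) and end before the first annotated base of the gene. That of S100a4 reaches the RefSeq start site, while those of S100a6, S100a11, Anxa2 and Cxcr6 stop 12, 8, 63 and 2 bases short of it. Distances below count back from the start site and include these bases. Capitals mark matches, on either strand, to the AP-1 letters TGANTCA or the Runx letters TGTGGT, 2 motifs of factors active in stimulated T cells. S100a6 (chr3:90612644-90612881) held 3 Runx matches, beginning 217, 145 and 79 bases before the start site. S100a11 (chr3:93520246-93520487) held AP-1 matches 136 and 38 bases before it, Anxa2 (chr9:69453433-69453619) an AP-1 match at 95 bases and Cxcr6 (chr9:123806227-123806474) a Runx match at 10 bases. S100a4 (chr3:90603520-90603769) held neither.
S100a6: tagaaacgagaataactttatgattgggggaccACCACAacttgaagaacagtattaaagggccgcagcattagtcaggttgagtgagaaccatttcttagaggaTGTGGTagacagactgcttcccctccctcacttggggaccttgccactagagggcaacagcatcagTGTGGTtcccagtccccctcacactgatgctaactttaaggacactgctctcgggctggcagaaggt
S100a4: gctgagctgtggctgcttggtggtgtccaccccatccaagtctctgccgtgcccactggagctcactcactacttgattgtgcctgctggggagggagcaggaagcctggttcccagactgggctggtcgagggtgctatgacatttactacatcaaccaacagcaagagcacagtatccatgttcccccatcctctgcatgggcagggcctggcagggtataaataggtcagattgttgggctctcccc
S100a11: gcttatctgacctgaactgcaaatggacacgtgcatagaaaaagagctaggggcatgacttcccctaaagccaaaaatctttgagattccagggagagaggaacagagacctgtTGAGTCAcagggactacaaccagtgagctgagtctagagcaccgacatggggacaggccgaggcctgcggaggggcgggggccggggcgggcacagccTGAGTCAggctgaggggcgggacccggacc
Anxa2: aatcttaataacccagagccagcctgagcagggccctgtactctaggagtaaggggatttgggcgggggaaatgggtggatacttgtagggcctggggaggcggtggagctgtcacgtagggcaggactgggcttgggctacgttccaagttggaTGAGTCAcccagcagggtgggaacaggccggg
Cxcr6: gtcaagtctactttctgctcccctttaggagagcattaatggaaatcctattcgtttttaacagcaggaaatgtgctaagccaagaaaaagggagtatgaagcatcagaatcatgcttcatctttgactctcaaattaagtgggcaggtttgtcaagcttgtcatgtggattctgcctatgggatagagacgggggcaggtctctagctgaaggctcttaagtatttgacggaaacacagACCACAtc

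Among 32851 RefSeq windows of 250 bases before a start site, 6.75% held the AP-1 letters and 14.05% the Runx letters. Of the 15 genes with the highest ratio described below, 13 had a window, and 4 of these held AP-1 letters (Anxa2, Ifitm3, Gzmb and F2r) and 4 Runx letters (Cxcr6, Nkg7, Gzmb and F2r). F2r is among those of the 15 that reached the UMI minimum only through members, as described below. Of the 15 genes with the lowest ratio, 10 had a window, 0 with AP-1 letters and 1 (Pdcd4) with Runx letters. The T-box letters GGTGTGA were in 3.33% of all windows and in 2 of the 13 (Nkg7 and Pglyrp1), and the KLF letters CCACACCC in 3.20% of all windows, in Pglyrp1 among the high genes and in Evl among the low ones. The T-box and Runx letters can overlap. A match describes letters and is no evidence of binding, and 13 and 10 windows are few.

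Of 3182 genes with at least 200 UMIs over both groups, 405 (12.7%) were at least 1.5-fold higher in members and 225 (7.07%) at least 1.5-fold lower, the rule genes left aside. The median log2 ratio over all 3182 genes was 0.12. Ribosomal protein genes took 21.5% of the UMIs of members and 31.0% of those of the other 85%, which moves all other genes up in CPM. With the total taken without ribosomal protein genes, 190 genes were higher and 452 lower (29.6% of those past the fold were higher, against 64.3%), and the median was -0.07. Log2 ratios below are therefore to be read against a median of 0.12, and each list is given with its count on the scale without ribosomal protein genes where that differed. A gene high in members can reach 200 UMIs through the members alone and must then differ. A gene low in members can likewise reach 200 UMIs only through the other 85% and must then differ, and no minimum was taken from members alone. When 164 UMIs were required in the other 85% instead, which at an equal level in both groups amounts to the same minimum, 3143 genes were counted, of which 358 (11.4%) were higher and 249 (7.92%) lower, with a median of 0.10.

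The highest ratios among genes outside the rule were led by genes known from effector T cells. Cxcr6, the receptor of the chemokine CXCL16, stood at 796 CPM [739, 856] in members and 53.2 CPM [46.5, 60.7] in the other 85%, a ratio of 14.95 [12.8, 17.5]. At equal depth it was found in 56.0% [47.4, 64.4] of members, in 8.27% [6.40, 10.5] of the other 85% and in 3.95% of the 152 cells of the other 85% with at least 2 Ccr7 UMIs. Those cells were taken as a rough gauge of RNA free in the droplets, which was not measured. Their own expression of effector genes cannot be told from such RNA. Without thinning, 64.6% of members and 12.0% of the other 85% had a Cxcr6 UMI. Plek, pleckstrin, a substrate of protein kinase C, followed with 156 against 19.5 CPM, S100a4 with the values above, and Anxa2, a membrane-binding annexin, with 466 against 65.5 CPM. Plek had fewer than 164 UMIs in the other 85%, so it was counted only through members and had to differ. Nkg7, a protein of cytotoxic granules, stood at 2486 against 411 CPM, a ratio of 6.05 [5.68, 6.45], and was found in 68.1% of members, 28.1% of the other 85% and 12.5% of the cells with Ccr7 at equal depth.

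Several high genes owed their level to few cells. Ccl4, an inflammatory chemokine, stood at 1013 against 196 CPM, but 50% of its 924 UMIs were in 2 members and it was found in 17.7% of members and 7.87% of the other 85% at equal depth. For Gzmb, granzyme B, 8 members held 50% of the UMIs (1454 against 325 CPM), for the interferon-induced membrane protein Ifitm3 7 (207 against 41.0 CPM) and for Ifng, interferon gamma, 9 (137 against 33.0 CPM). The same portion of the UMIs was held by 18 members for Cxcr6 and by 21 for Nkg7. Pglyrp1, a peptidoglycan recognition protein, was the most evenly spread of the 15, with 50% of its UMIs in 33 members (760 against 208 CPM). The rest of the 15 were F2r, the thrombin receptor (4.25-fold), Rpa2, a subunit of the single-strand DNA binding protein RPA (3.88-fold), the septin Sept11 (3.77-fold), the actin-severing Dstn (3.48-fold) and Il12rb2, a chain of the IL-12 receptor (3.46-fold). Like Plek, the genes Ifng, F2r, Rpa2, Sept11 and Il12rb2 had fewer than 164 UMIs in the other 85%. They were counted only through members and had to differ.

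**Figure D1:**
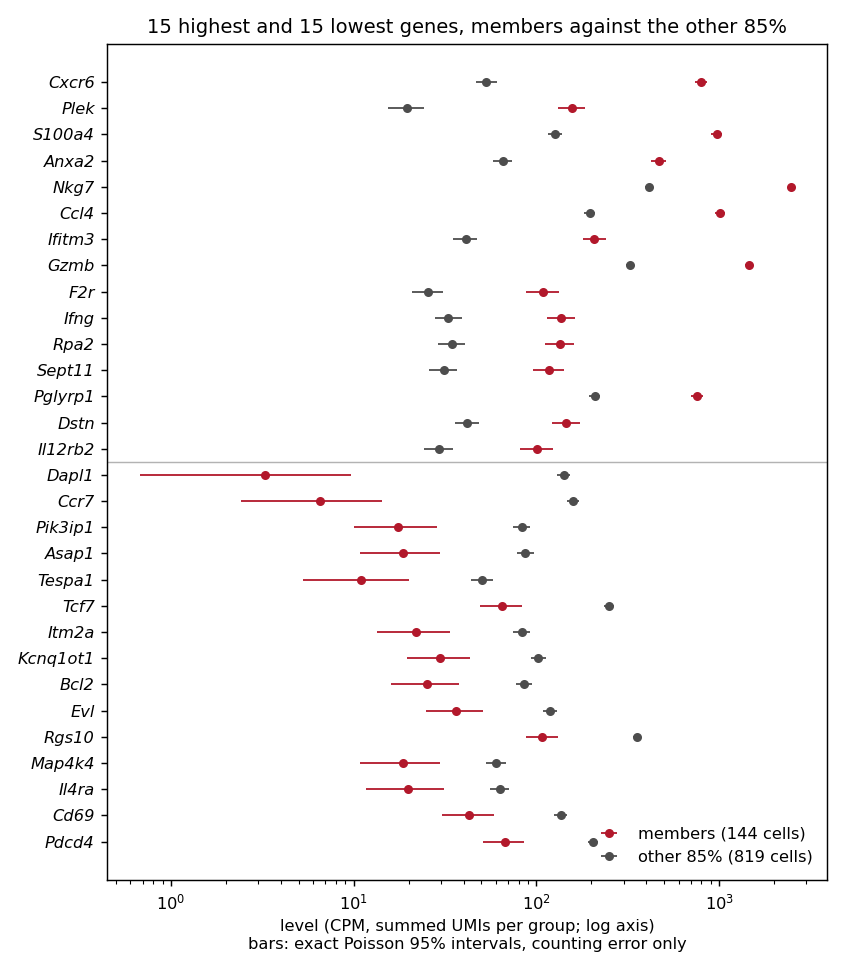
Levels (CPM, log axis) of the 15 genes with the highest and the 15 with the lowest ratio of members to the other 85%, with exact Poisson 95% intervals as bars. Cxcr6 and Dapl1 mark the ends. The intervals of the groups do not overlap for any of the 30 genes, which follows from picking them by their ratio. Plek, Ifng, F2r, Rpa2, Sept11 and Il12rb2 were counted only through members and had to differ. The 15 lowest other than Tcf7, Rgs10, Cd69 and Pdcd4 were counted only through the other 85% and also had to differ.

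The lowest ratios were led by genes of naive and central memory T cells. Dapl1 had 3 UMIs in the 144 members (3.29 CPM [0.678, 9.61]) against 585 UMIs in the other 85% (141 CPM [130, 153]). At equal depth 0 of 141 members had a Dapl1 UMI, against 10.3% of the other 85%. This allows up to 2.13% of members with a UMI at that depth, and does not limit the share of cells that express the gene. Ccr7, which guides T cells into lymph nodes, had 6 UMIs in members (6.58 CPM [2.41, 14.3]) against 658 (159 CPM [147, 171]), with a ratio of 0.042 [0.015, 0.091]. Tcf7, the transcription factor TCF-1 of naive and memory T cells, stood at 64.7 against 249 CPM. Pik3ip1, an inhibitor of PI3K, stood at 17.5 against 83.4 CPM, and Bcl2, which protects resting T cells from death, at 25.2 against 85.5 CPM. Cd69, an early activation marker that also holds cells in tissues, stood at 42.8 against 136 CPM. The other lowest genes, Asap1, Tespa1, Itm2a, Kcnq1ot1, Evl, Rgs10, Map4k4, Il4ra and Pdcd4, were 3.05-fold (Pdcd4) to 4.67-fold (Asap1) lower.

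The course of single genes over the whole range of the rule share is given as a description, since most of the genes followed were picked by their ratio at its upper end. When the 963 cells were ordered by that share and divided into 10 bins of 96 or 97 cells, Cxcr6 stood at 8.88 CPM in bin 1 (lowest), 29.2 in bin 5, 137 in bin 8, 352 in bin 9 and 970 in bin 10. Nkg7 ran from 122 to 2818 CPM and S100a4 from 2.22 to 1097 CPM. Ccr7 ran the other way, from 357 CPM in bin 1 over 142 in bin 5 to 4.93 in bin 10, and Tcf7 from 335 to 59.2 CPM. Ctla4 and Il10 levelled off earlier, with Ctla4 at 2044 CPM in bin 9 and 2131 in bin 10, and Il10 at 692 and 618 CPM. The median depth of a cell was 4050 UMIs in bin 1 and 6049 in bin 10, and with every cell thinned to 2500 UMIs before the choice the log2 ratio of members to the other 85% was 3.67 for Cxcr6 (3.90 without thinning), 2.54 for Nkg7 (2.60) and -4.60 for Ccr7 (-4.59).

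**Figure D2:**
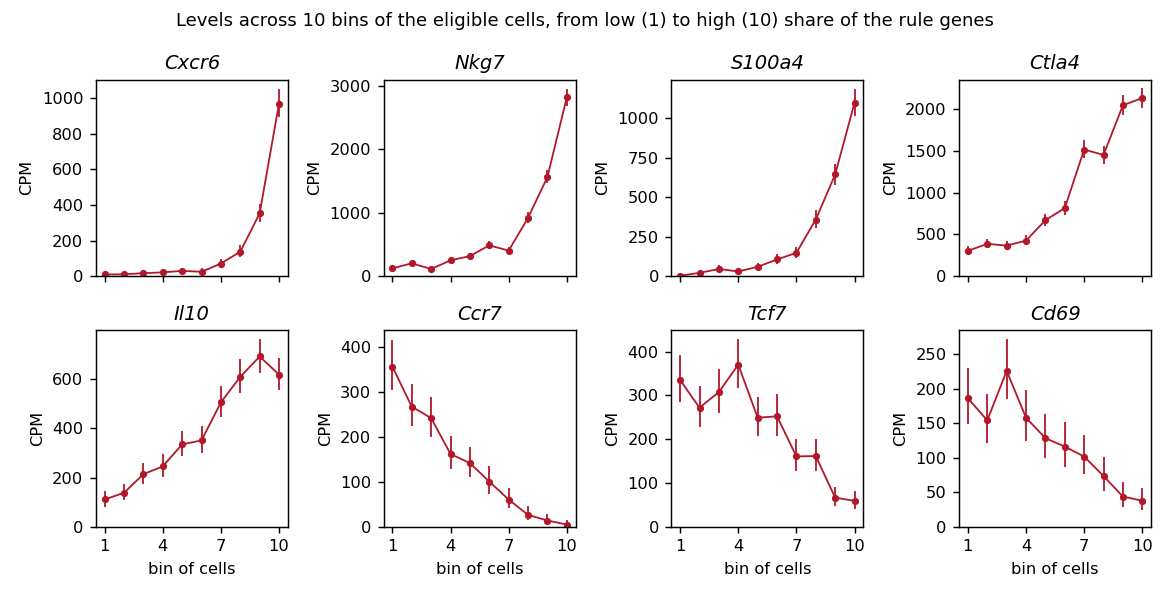
Levels (y axis, CPM from 0) of 8 genes in 10 bins of the 963 eligible cells (x axis), from the lowest (1) to the highest (10) share of the rule genes, with exact Poisson 95% intervals. Cxcr6, Nkg7 and S100a4 climb mostly in the last 3 bins, Ctla4 and Il10 from the middle on, and Ccr7, Tcf7 and Cd69 decline.

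The lists of genes that bear on the label effector memory-like pointed mostly, but not wholly, one way. Of 18 effector memory genes counted, 12 were past 1.5-fold higher and 0 lower (10 and 1 without ribosomal protein genes in the total), with a median log2 ratio of 0.83 against 0.12 over all genes. With the minimum taken from the other 85% they were 11 of 17, without Ahnak. Next to Cxcr6 these included the integrin chains Itgb1 (213 against 77.1 CPM) and Itga4 (179 against 78.3 CPM), the scaffold protein Ahnak (102 against 30.4 CPM) and the transcription factors Prdm1 (101 against 50.1 CPM) and Id2 (544 against 274 CPM). Of 14 naive and central memory genes, 0 were higher and 9 lower (10 on the other scale), with a median of -0.92, among them Lef1 (41.7 against 115 CPM) and Il6ra (26.3 against 67.0 CPM). Dapl1, Ccr7 and Il6ra of this list reached the UMI minimum only through the other 85% and had to differ. Cd44, a surface molecule commonly used to define effector memory cells, stood at 45.0 against 39.8 CPM, a ratio of 1.13 [0.783, 1.60]. Klf2, which drives S1pr1, had a ratio of 0.926 [0.817, 1.05]. Outside the rule genes, other S100 genes, integrin chains, Cxcr6 and low Ccr7 went with the label and Cd44 did not, and the high galectins were those of the rule.

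**Figure D3:**
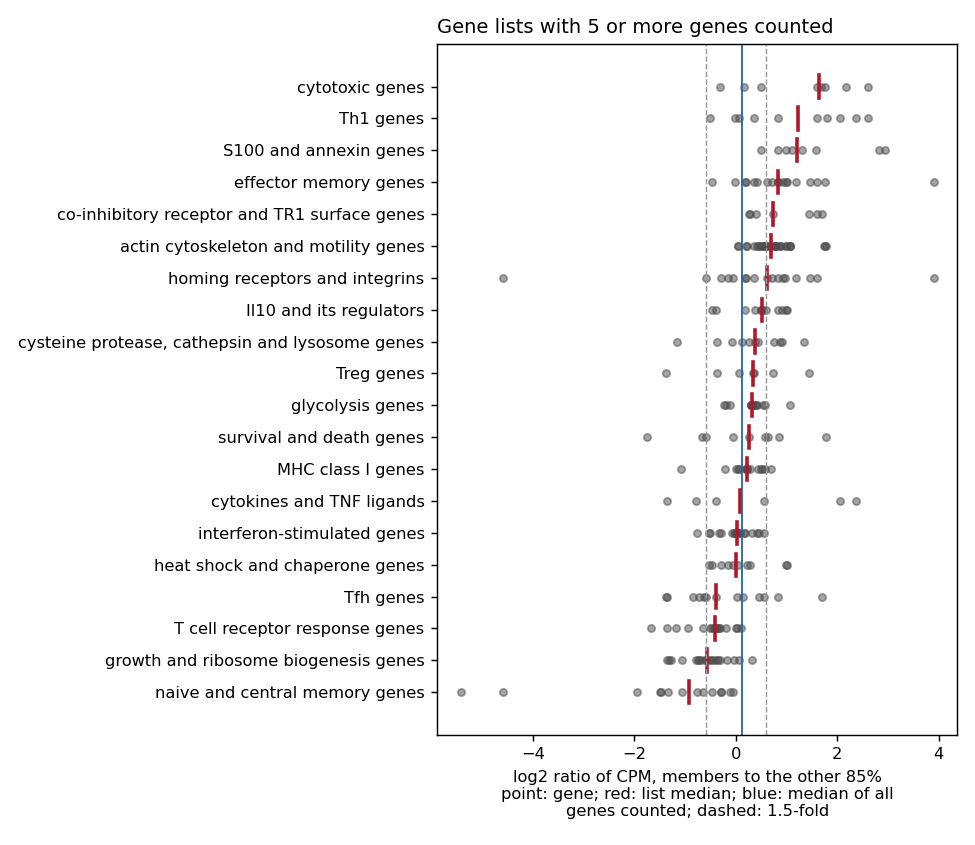
Log2 ratio of CPM, members to the other 85% (x axis), of each gene counted (points) in the gene lists with at least 5 such genes, with list medians in red, the median of all genes (0.12) in blue and 1.5-fold as dashed lines. Medians run from 1.63 for cytotoxic genes (1.13 for those that reach the UMI minimum without the members' excess) to -0.92 for naive and central memory genes. The latter include genes counted only through the other 85%.

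Most S100 and annexin genes outside the rule were higher, and so were some actin cytoskeleton genes, to an extent that changed with the scale. Of 8 S100 and annexin genes other than the rule genes, 7 were past the fold and 0 lower, with a median of 1.20. Besides those above these were Anxa5 (172 against 86.5 CPM), Anxa6 (478 against 194 CPM) and Anxa11 (136 against 76.6 CPM). Of 30 actin cytoskeleton and motility genes, 17 were higher (14 on the other scale, and 7 once each cell's count of a gene was capped at 5 UMIs) and 0 lower, with a median of 0.70. Ahnak reached the minimum only through members, and without it 16 of 29 were higher, with a median of 0.63. Vim, the intermediate filament protein vimentin, stood at 444 against 130 CPM, the LIM protein Crip1 at 3286 against 985 CPM, Actg1 at 7698 against 3653 CPM and Tmsb4x, which binds actin monomers, at 22059 against 12860 CPM. Actb, Actg1, Cfl1, Tmsb4x and Arpc1b had a ratio below 1 under this cap, which flattens genes with many UMIs in every cell. Under it Crip1 was 1.26-fold higher, within the fold, as were Arpc5, Lsp1, Cotl1 and Cdc42, and the log2 ratio of the summed actin cytoskeleton genes was 0.036 (0.67 without it). Of 2 other galectin genes counted, Lgals3bp (136 against 82.6 CPM) was past the fold and Lgals9 (73.5 against 61.7 CPM) was not, and neither was on the other scale. Of 17 homing receptors and integrins, 9 were higher (7 on the other scale) and 2, Ccr7 and Cxcr5, lower.

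Several Th1 and cytotoxic genes were higher, while the Th1 factor Tbx21 was within the fold. Of 10 Th1 genes counted, 6 were higher and 0 lower (6 and 1 on the other scale), with a median of 1.22, and the higher ones included Ifng, Il12rb2, Ccl4, Nkg7 and Runx3. Ifng and Il12rb2 reached the minimum only through members, and without them 4 of 8 were higher, with a median of 0.60. Tbx21, T-bet, had fewer than 200 UMIs and stood at 39.5 against 35.9 CPM, a ratio of 1.10 [0.742, 1.59], and the chemokine receptor Cxcr3 at 222 against 172 CPM. Of 8 cytotoxic genes, 5 were higher and 0 lower, with a median of 1.63, among them Gzma (103 against 34.2 CPM) and the protease inhibitors Serpinb6b (321 against 94.9 CPM) and Serpinb9 (92.1 against 28.9 CPM), which protect cells from their own granzymes. Gzma and Serpinb9 reached the minimum only through members, and without them 3 of 6 were higher, with a median of 1.13. Perforin (Prf1) had 10 UMIs in members and 2 in the other 85%. The lists of Th2 and Th17 genes had 1 gene counted each, Il4ra (lower, counted only through the other 85%) and Ahr (87.7 against 62.2 CPM, within the fold). Gata3, with fewer than 200 UMIs, stood at 49.3 against 28.7 CPM.

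Il10 and several co-inhibitory receptors were also higher in members. Il10 stood at 640 CPM [589, 694] against 341 [324, 359], a ratio of 1.88 [1.70, 2.07], and was found at equal depth in 61.7% [53.1, 69.8] of members and 41.1% [37.5, 44.7] of the other 85%, although all cells had been sorted for the reporter. Without thinning the shares were 86.1% and 51.5%. The eGFP reporter transcript had 0 UMIs in members, so the reporter's own level could not be set beside that of Il10. Of 12 genes of Il10 and its regulators, 5 were higher (Il10, Prdm1, Batf, Id2 and Bhlhe40) and 0 lower (4 and 1 on the other scale), while Maf stood at 874 against 603 CPM, a ratio of 1.45 [1.34, 1.57]. Batf (1.37-fold) and Id2 (1.49-fold) were within the fold with each cell's count of a gene capped at 5 UMIs. Of 7 co-inhibitory receptor and TR1 surface genes, 4 were higher (3 on the other scale) and 0 lower. Tigit reached the minimum only through members, and without it 4 of 6 were higher. Ctla4 stood at 2193 against 811 CPM, Pdcd1, which encodes PD-1, at 314 against 96.1 CPM and Lag3 at 1806 against 1083 CPM. Under the same cap Lag3 was 1.08-fold higher, within the fold, and the log2 ratio of Ctla4 was 0.65 (1.43 without the cap). Havcr2, TIM-3, with 97 UMIs in all, stood at 58.1 against 10.6 CPM. Itga2, the gene of the TR1 marker CD49b, had 0 UMIs in members and 4 in the other 85%, so it was not detectable at this depth, at which 0 UMIs allow up to 3.29 CPM.

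Early response and growth genes were lower or within the fold, and follicular helper genes were mixed. Of 17 T cell receptor response genes, 0 were higher, 5 lower (9 on the other scale) and 12 within the fold, with Fos at 60.3 against 137 CPM, Jun at 81.1 against 156 CPM, Myc at 35.1 against 89.4 CPM and Irf8 at 446 against 698 CPM. Myc reached the UMI minimum only through the other 85% and had to differ. Of 20 growth and ribosome biogenesis genes, 0 were higher, 10 lower (13 on the other scale) and 10 within, with lower values for nucleolin, Ncl (433 against 718 CPM), and C1qbp (73.5 against 183 CPM). With the cap of 5 UMIs, Irf8 (0.818), Ncl (0.763), Npm1 and Hspd1 had ratios within the fold. Of 13 Tfh genes, 2 were higher (Pdcd1 and Icos) and 6 lower, with Tnfsf8, CD30 ligand, at 175 against 452 CPM and Izumo1r, folate receptor 4, at 307 against 795 CPM. Of 7 Treg genes, Ikzf2, Helios (300 against 180 CPM), and Ctla4 were higher and Izumo1r lower, and on the other scale Ikzf2 was within the fold. The mRFP reporter transcript had 7 UMIs, in 6 members, and 23 UMIs in the other 85%. It stood at 7.68 and 5.54 CPM, against 29.4 CPM in Foxp3-positive cells, and Foxp3 UMIs were 0 in both groups by the rule. With cells of an mRFP UMI or at least 3 Ikzf2 UMIs left out before the choice, 48 of the 144 members were lost and 121 cells were chosen, 96 of them members. Of 2704 genes then counted, 410 were higher and 210 lower, the log2 ratio of Cxcr6 was 4.34 (3.90 with them) and that of Gzmb 2.99 (2.16 with them).

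The remaining lists differed less. Of 6 cytokines and TNF ligands, Ifng and Ccl4 were higher and Ltb and Tnfsf8 lower, and Ifng reached the minimum only through members (median -0.40 without it). Of 15 glycolysis genes, 1 was higher, the lactate exporter Slc16a3 (82.2 against 39.5 CPM). Of 19 interferon-stimulated genes, 0 were higher and 1, Iigp1, lower, and of 15 MHC class I genes, 1, Psme2, was higher and 1, H2-Q6, lower. Of 11 cysteine protease, cathepsin and lysosome genes, 4 were higher, among them Ctsd (401 against 157 CPM), and 1, Lamp1 (55.9 against 126 CPM), was lower. Of 10 heat shock and chaperone genes, 2 of the endoplasmic reticulum, Calr and Hsp90b1, were higher. Of 9 survival and death genes, 3 were higher (Bcl2a1d, Bak1 and Casp1) and 3 lower (Bcl2, Fas and Birc3), so that Bcl2a1d stood at 388 against 113 CPM where Bcl2 was 3.39-fold lower. The medians of cytokines (0.08), interferon-stimulated genes (0.02) and heat shock genes (-0.005) all lay under the median of all genes, and all 3 were below 0 on the other scale. On that scale 2 cytokines were higher and 3 lower, and the counts were 0 and 3 for interferon-stimulated genes, 0 and 1 for MHC class I, 3 and 1 for cathepsins and lysosome genes, 2 and 2 for heat shock genes and 2 and 3 for survival and death genes.

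Defining markers of other cells were at or near 0 in members, while the summed markers of myeloid, NK and NKT cells were higher than in the other 85%. All 7 CD4 T cell markers listed were within the fold (median 0.30), with Cd4 at 275 against 214 CPM. Cd8a had 0 UMIs in members and Cd8b1 7, against 64 in the other 85%. The 9 B cell and plasma cell markers summed to 27 UMIs in members (29.6 CPM, against 22.2), most of them Cd74, with Cd79a and Ms4a1 at 0. The 21 markers of macrophages, monocytes and dendritic cells summed to 587 against 412 CPM, a ratio of 1.42 [1.29, 1.57], with 2 of 3 genes counted higher (Cst3 and Ccr2). They were chiefly Cst3 and Ctss, which T cells express as well, with Csf1r, Cd14 and Adgre1 at 0 and Lyz2 at 5.48 against 7.47 CPM. The 8 neutrophil markers summed to 1 UMI in members, the 10 red cell and platelet markers to 0, and the 4 listed markers of NKT and gamma delta T cells found in the files to 11 UMIs, most of them Zbtb16, at 12.1 against 3.61 CPM, a ratio of 3.34 [1.39, 7.78]. The 11 NK cell and ILC markers summed to 61.4 against 40.5 CPM, a ratio of 1.52 [1.10, 2.06], mostly Gata3, with Ncr1 at 0. Genes of dividing cells, limited but not removed by the rule, summed to 2575 against 1607 CPM, and 4 of 6 counted were higher (Stmn1, H2afz, Hmgb2 and Mcm6). With cells that had a UMI of Cd79a, Ms4a1, Lyz2, Csf1r, Cd8a or Cd8b1 left out before the choice, 11 members among them, 386 of 2965 genes were higher and 217 lower. The part of the NK, NKT and dividing cell markers in the other differences was not tested.

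Members differed among themselves. At equal depth, 79 of 141 members had a Cxcr6 UMI. Of these, 88.6% also had an Nkg7 UMI, against 41.9% of the other members, 81.0% had S100a4 (against 45.2%) and 67.1% had Gzmb (against 24.2%). Ifitm3 was found with Cxcr6 in 26 of 27 members and Ccl4 in 22 of 25. Il10 was found in 59.5% of members with Cxcr6 and 64.5% of those without. Within the members, the 48 cells with the highest share of the rule genes had Cxcr6 at 1045 CPM and Anxa2 at 759 CPM, and the 48 cells with the lowest share at 448 and 181 CPM. Il10 was lowest in the highest 48 cells, at 495 CPM [420, 580], against 747 [652, 852] in the middle and 685 [595, 784] in the lowest 48. Ctla4 stood at 2047 CPM [1892, 2213] in the highest and 2317 [2149, 2495] in the lowest 48, with intervals that overlapped. Ccl4 followed no order, with 1586 CPM in the lowest, 239 in the middle and 1192 in the highest 48 cells. By the genes outside the rule, with 15 nearest cells each, members had a median of 60% members among their neighbours and 80 of 141 had a majority, while the other 85% had a median of 0% and 15 of 750 had a majority (15.8% of the 891 cells placed were members).

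A Ccl5 limit of 0.5% leaves cells with some Ccl5 among members, so members with and without a Ccl5 UMI were compared. The 67 members with 0 Ccl5 UMIs had Cxcr6 at 623 CPM and Nkg7 at 1981 CPM, and the 77 with a UMI had 936 and 2894 CPM. In the other 85%, cells with 0 Ccl5 UMIs had Cxcr6 at 39.6 CPM and Nkg7 at 288 CPM. Il10 was at 750 CPM in members with 0 Ccl5 UMIs and 551 CPM in those with Ccl5. The high levels of Cxcr6, Nkg7 and Il10 in members were thus also seen without any Ccl5 UMI.

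Members were next set beside the 134 Ccl5-high cells, which met the same conditions except that Ccl5 made up at least 0.5% of UMIs, and of which 38 (28.4%) lay above the members' limit for the rule genes. Of 1128 genes counted, 79 (7%) were higher in members and 34 (3.01%) lower. Cxcr6 was at a similar level, 796 CPM in members and 852 CPM in Ccl5-high cells. Itgb1 (213 against 83.0 CPM, 2.56-fold), Crip1 (2.53-fold), Anxa2 (466 against 189 CPM), the gut-homing integrin chain Itgb7 (560 against 258 CPM) and S100a10 (1826 against 847 CPM) were higher in members. Ccl3 (124 against 903 CPM), Ccl4 (1013 against 5295 CPM), Id2 (544 against 1605 CPM), Gzmb (1454 against 3509 CPM) and Nkg7 (2486 against 4686 CPM) were lower. By list, 5 of 7 cytotoxic genes and 4 of 6 Th1 genes were lower in members, and 5 of 6 S100 and annexin genes higher with 0 lower. Of 11 effector memory genes, 3 were higher and 3 lower, with a median log2 ratio of -0.11 against 0.13 over all genes. The summed UMIs of the effector memory list had a ratio of 0.80 [0.77, 0.84], so this list was not higher in members than in Ccl5-high cells. Il10 stood at 640 and 564 CPM and Lag3 at 1806 and 1841 CPM in the 2 groups.

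Against the 207 Foxp3-positive cells, of which 43 (20.8%) lay above the limit, 122 of 1680 genes (7.26%) were higher in members and 76 (4.52%) lower. Cxcr6 (796 against 126 CPM, 6.31-fold), Itgb1 (213 against 48.8 CPM), Pdcd1 (314 against 94.0 CPM), Nkg7 (2486 against 769 CPM) and Anxa2 (466 against 151 CPM) were higher in members. Tnfrsf9, 4-1BB (167 against 740 CPM), Izumo1r (307 against 908 CPM), Il2ra, CD25 (118 against 281 CPM), and Ccr2 (80.05 against 204 CPM) were lower, and of 8 Treg genes 4 were lower, Foxp3 among them by the rule. Itgb1 reached the UMI minimum only through members and Ccr2 only through Foxp3-positive cells, so both had to differ. Of 9 Tfh genes, 7 were higher in members and 1, Izumo1r, lower. Of 18 growth and ribosome biogenesis genes, 0 were higher and 11 lower, and of 13 effector memory genes, 4 were higher and 2 lower. Il10 and Ctla4 were close in the 2 groups, at 640 and 637 CPM and at 2193 and 2028 CPM. The 377 dividing cells, with a median of 9595 UMIs, had 126 cells (33.4%) above the limit, S100a6 at 1745 CPM and Cxcr6 at 265 CPM.

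**Figure D4:**
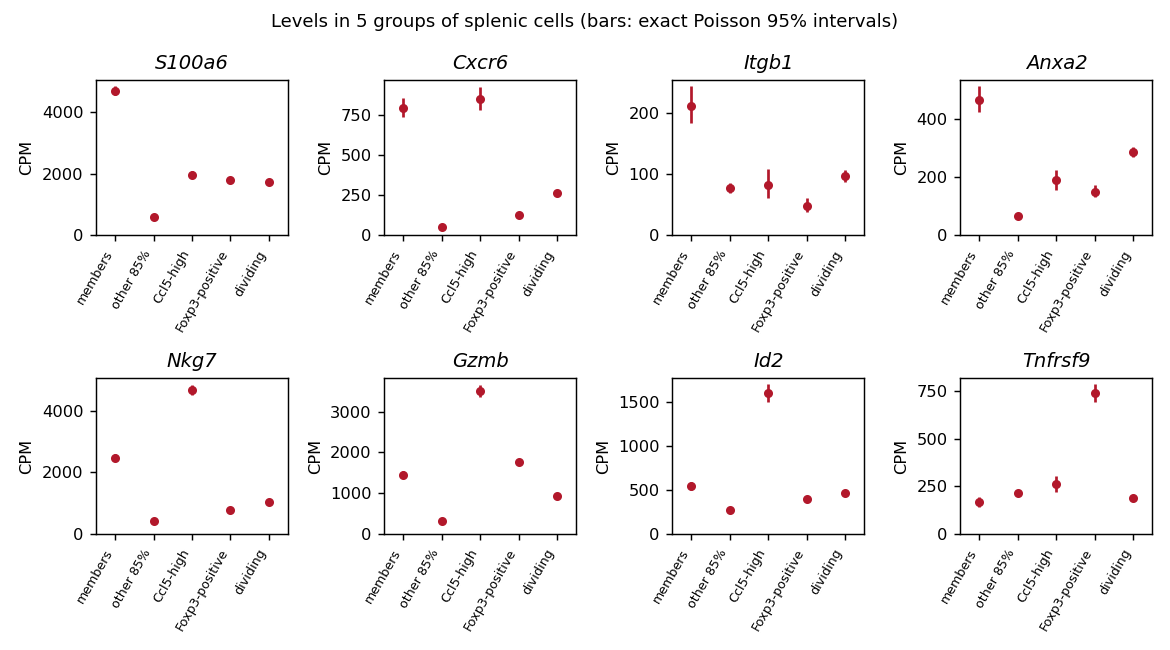
Levels (y axis, CPM from 0) of 8 genes in members, the other 85%, Ccl5-high, Foxp3-positive and dividing splenic cells, with exact Poisson 95% intervals. S100a6, Itgb1 and Anxa2 are highest in members, Nkg7, Gzmb and Id2 in Ccl5-high cells and Tnfrsf9 in Foxp3-positive cells, while Cxcr6 is about as high in members as in Ccl5-high cells. S100a6 is a rule gene, so the choice made it high in members. Itgb1 reached the UMI minimum against Ccl5-high and Foxp3-positive cells only through members.

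The library of the small intestine, which the choice of members did not use, held few such cells. Of 1474 barcodes 168 (11.4%) met the same conditions, and 4 of these (2.38%) lay above the limit of the spleen. Their median share of the rule genes was 0.196%, against 0.211% in the eligible cells of the spleen. The 15% of intestinal cells with the highest share, 25 cells with 115159 UMIs and a lowest share of 0.413%, were compared with the other 143. S100a4 stood at 139 against 17.9 CPM there, a ratio of 7.74 [3.22, 19.9], Ifitm3 at 347 against 142 CPM, a ratio of 2.45 [1.62, 3.67], and Cxcr6 at 660 against 447 CPM, a ratio of 1.48 [1.12, 1.93]. Lgals3, a rule gene, stood at 34.7 against 43.9 CPM on 4 and 22 UMIs. Of 3179 genes counted in the spleen and found among these intestinal cells, 49.8% had a ratio above 1 and 50.2% below 1, and 5.54% had an interval above 1 and 3.62% below 1. Of the 15 genes highest in the splenic members, 12 were higher and 3 lower in the intestinal top 15%, with 4 intervals above 1. These 15 include Plek, Ifng, F2r, Rpa2, Sept11 and Il12rb2, which were counted in the spleen only through members. Of the 15 lowest, 5 were higher and 9 lower, with 2 intervals below 1 (Pik3ip1 and Bcl2), and Dapl1 had 0 UMIs in both groups. Nkg7 (886 against 849 CPM) and Il10 (643 against 558 CPM) differed by less than counting error. With 25 cells, most of these ratios could not be told from 1 at this depth.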

How the data were processed

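The authors demultiplexed and trimmed the reads (Trimmomatic), aligned them to mm10 and counted UMIs with Cell Ranger, versions not given in the sources used here. The deposited counts are whole UMIs per gene and cell barcode for 28009 genes, with no normalization, before the study's filters on cells. No columns of other samples were present (0).

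Members were chosen by the rule stated in the opening, and UMIs were summed per group (Python 3.11.15, numpy 2.4.6, scipy 1.17.1, pandas 2.3.3). A gene was counted with at least 200 UMIs over both groups and was past the fold at a CPM ratio of 1.5 or its inverse. With 1 library per tissue there was no test. Ratios have exact binomial and levels exact Poisson 95% intervals. Shares of cells were compared after thinning to 2500 UMIs (random seed 1), which left out 3 members and 69 other cells. Neighbours came from 20 principal components of 500 variable genes without the rule genes (scikit-learn 1.9.0). Scrublet (scanpy 1.11.5) called 4 doublets, 1 of them a member, left out only as an alternative. The 23 gene lists and 9 marker lists held 469 genes, of which 454 matched the files. Genes named singly are the 4 rule genes, list genes and the 15 highest and 15 lowest ratios where the higher group had a UMI in 10% of its cells or more, without mitochondrial, Rpl, Rps and Gm-numbered genes. The members and lists were chosen with earlier results of these data known. The counting steps were tested on simulated data. Gene positions are from the GRCm38 annotation (GENCODE M21), and RefSeq windows were matched by symbol. Some results are not reported here.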

Additional observations from a re-analysis of the deposited data

Results flagged for a closer look

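Among the 4 rule genes and the 15 highest and 15 lowest ratios, 34 genes in all, the direction differed between the tissues in 9. In these, the intestinal cells with the highest 15% of the rule share differed from the rest of their tissue one way, and the splenic members the other. The difference between tissues was not tested, since each tissue had 1 library, and the intestinal group held 25 cells. Of genes high in the splenic members, Lgals3 had a log2 ratio of -0.34 among intestinal cells and 4.27 among splenic cells, Ifng -0.72 and 2.05, Sept11 -0.17 and 1.92, and Il12rb2 -1.46 and 1.79. Ifng, Sept11 and Il12rb2 were counted in the spleen only through members. Of genes low in the splenic members, Tcf7 had 0.0076 and -1.94, Kcnq1ot1 0.12 and -1.79, Rgs10 0.33 and -1.72, Map4k4 0.48 and -1.69, and Pdcd4 0.053 and -1.61. The intestinal intervals of all 9 ratios included a ratio of 1.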

How the results depend on the processing

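No paired analysis was possible because each tissue had 1 library. Without a replicate, none of the values below shows spread between mice.

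The 34 genes named singly are the rule genes and the most extreme ratios, so that their kept direction under the 18 other ways of choosing cells or scaling levels is no sign of stability. Of 611 values (Dapl1 had none with thinned cells), 95 lay outside the counting interval of the reported ratio, with Cxcr6 between 2.95 and 4.34 (log2 ratio, 3.90 as reported), Gzmb between 1.68 and 2.99, and Ccr7 between -5.19 and -3.72. The 405 higher and 225 lower genes became 233 and 134 (of 1538 counted) with cells thinned to 2500 UMIs, 288 and 148 (of 2077) with 0 Ccl5 UMIs required, 942 and 758 (of 6705) at 50 UMIs per gene, 2661 and 3729 (of 12929) with no minimum, and 91 and 64 at 2-fold; fewer or more genes were counted in the first 4. With choices made after seeing the data, a UMI minimum taken from the other 85% alone gave 358 and 249, and the total without ribosomal protein genes gave 190 and 452. Another such choice capped each cell's count of a gene at 5 UMIs, by which Actb (-0.35), Actg1 (-0.31), Cfl1 (-0.16), Tmsb4x (-0.37) and Arpc1b (-0.0056) fell below 0 in log2 ratio, as the cap flattens genes with many UMIs per cell. Over all 3178 genes counted, the cap gave 277 higher and 231 lower. Of 76 genes of the lists or named singly that were higher, 56 stayed past the fold under the cap and 20 did not, among them Crip1, Lag3 (0.11), Id2, Icos, Batf, H2afz and Hmgb2. Of 46 that were lower, 42 stayed and 4 did not (Irf8, Ncl, Npm1 and Hspd1). S100a6 moved from 2.98 to 1.09, Lgals1 from 2.33 to 0.42 and Nkg7 from 2.60 to 1.27. Another, leaving out cells with mRFP or at least 3 Ikzf2 UMIs, which removed 48 members, gave 410 and 210. With the 4 rule genes weighted equally, 107 of 144 cells were shared with the members, and leaving out 1 doublet, 11 members with a UMI of 6 markers of other cells or 9 deep members left both counts within 1.5 times.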
